A study of Caenorhabditis elegans with 12 samples.

Results

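Y37E11AL.1, sri-62, mihp-1 and pde-1 are 4 of the 5 genes with the highest values in early Caenorhabditis elegans embryos that lack LIN-65. They were picked by that value from the 2949 genes for which the study's tables hold measurements, so their height in lin-65 embryos is the reason for their choice and not a result. Total RNA was sequenced from embryos of 4 strains, grown at 20 °C, with 3 libraries each, labelled as independent biological replicates. The strains were the double mutant, with lin-65(delta) on chromosome I and met-2(n4256) on chromosome III, the lin-65(delta) single mutant, the met-2(n4256) single mutant and the N2 (Bristol) wild type, taken as the baseline. The embryos spanned the stages from 1 to 300 cells and came from cultures kept for 60 to 65 h after larval synchronization, with the time depending on the strain. Both mutations affect the whole animal, and the labels give 1 strain per genotype. The stage mix of each library is not given.

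MET-2 is the worm relative of SETDB1 and places dimethylation on lysine 9 of histone H3, a mark of silent chromatin that is enriched on chromosome arms in this animal. LIN-65 is a mostly unstructured protein that binds MET-2 and helps it to gather in nuclear foci. Worms without either protein live, which allows the single and the double mutant to be set side by side.

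Each measurement is a log2 ratio of 1 mutant library to a baseline, read as N2 because each mutated gene was near 0 where it was intact. The lin-65 transcript stood at -6.04 ± 0.21 in the double mutant and -5.88 ± 0.09 in lin-65, against -0.22 ± 0.04 in met-2 (SD, n = 3 libraries per strain, as for every ± below). The met-2 transcript stood at -2.76 ± 0.06 in the double mutant and -2.36 ± 0.04 in met-2, against -0.02 ± 0.08 in lin-65. A value of 1 therefore means 2-fold above N2. The N2 libraries were not analysed here, and neither counts nor depth are known. A low level in N2 cannot be seen, and a shift of the N2 libraries would move all 9 values of a gene together. Replicate 1 of met-2 stood apart from its group. Its median over all genes was 1.53, against 1.06 and 1.08 in the other met-2 libraries, while the double mutant libraries lay at 1.47 to 1.49 and the lin-65 libraries at 0.77 to 0.97.

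Y37E11AL.1 (WBGene00021357) is a protein-coding gene on chromosome IV that carries only a sequence name. The WBcel235 annotation gives it 1 transcript with 7 exons and 384 codons. Its values were 3.47, 3.54 and 3.74 in double mutant embryos, 3.63, 3.38 and 3.55 in lin-65 embryos, and 0.99, 1.15 and 1.02 in met-2 embryos. The double mutant and lin-65 libraries overlapped, and all 6 lay far above every met-2 library. As means this was 3.58 ± 0.14 in double mutant embryos, 3.52 ± 0.13 in lin-65 embryos and 1.05 ± 0.08 in met-2 embryos, which are 12.0-fold, 11.5-fold and 2.07-fold over N2. The authors' tables of selected genes for the double mutant and for lin-65 each held all 4 genes. Of all 2949 genes, 85% were held with a mean above 0 by the first table and 29% by the second. The met-2 table, which held 65.2% in this way, had the other 3 genes and lacked Y37E11AL.1, although its met-2 mean exceeded 1.

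The gene sri-62 (WBGene00005574) encodes a seven-transmembrane protein of the serpentine receptor class I, one of the large families of putative chemoreceptors of the worm. It lies on chromosome II and has 6 exons and 334 codons. Its values were 3.51, 3.60 and 3.68 in double mutant embryos, 3.52, 3.61 and 3.39 in lin-65 embryos, and 2.29, 1.92 and 1.82 in met-2 embryos. Again the double mutant and lin-65 overlapped and both lay above met-2, whose highest value came from replicate 1, the library that stood apart. The means were 3.60 ± 0.08 in double mutant embryos, 3.51 ± 0.11 in lin-65 embryos and 2.01 ± 0.25 in met-2 embryos. In linear terms these were 12.1-fold, 11.4-fold and 4.02-fold.

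For mihp-1 (WBGene00007219), a short gene on chromosome I with 2 annotated transcripts of 101 and 120 codons, the mutants were closer together. The double mutant libraries gave 3.40, 3.49 and 3.57, the lin-65 libraries 3.32, 3.32 and 3.29, and the met-2 libraries 2.80, 2.74 and 2.71. None of the 3 strains overlapped another, with the double mutant highest and met-2 lowest. The means were 3.48 ± 0.09 in double mutant embryos, 3.31 ± 0.02 in lin-65 embryos and 2.75 ± 0.05 in met-2 embryos, or 11.2-fold, 9.92-fold and 6.72-fold. Its met-2 mean ranked 11 among the 2949 genes, so mihp-1 stood high in every mutant.

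pde-1 (WBGene00011433) encodes a cyclic nucleotide phosphodiesterase of the calcium- and calmodulin-dependent type, an enzyme that ends cGMP and cAMP signals. It also lies on chromosome I and has 2 annotated transcripts with 533 and 664 codons. Its values were 3.17, 3.13 and 3.30 in double mutant embryos, 3.14, 3.13 and 2.91 in lin-65 embryos, and 2.65, 2.36 and 2.29 in met-2 embryos. The ranges of the double mutant and lin-65 touched, and both lay above met-2, in which replicate 1 was again the highest. The means of 3.20 ± 0.09 in double mutant embryos, 3.06 ± 0.13 in lin-65 embryos and 2.44 ± 0.19 in met-2 embryos equal 9.20-fold, 8.34-fold and 5.41-fold. In bulk embryos, more cells that carry a transcript and more transcript per cell cannot be told apart for any of the 4 genes.

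**Figure D1:**
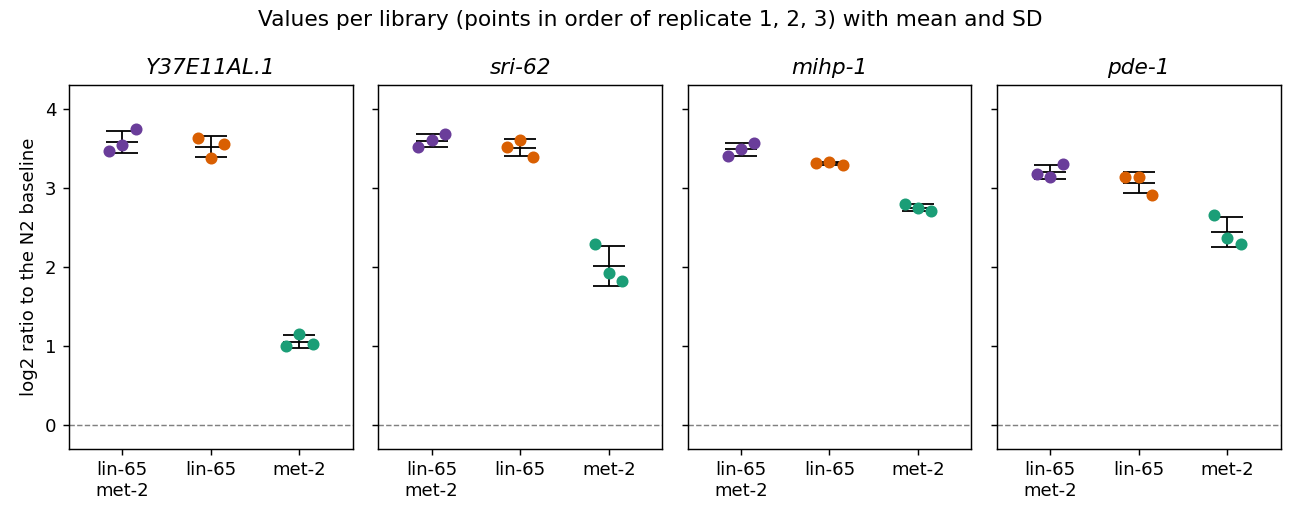
Log2 ratio to the N2 baseline (vertical axis) of each gene in the 3 libraries of the double mutant, lin-65 and met-2; points are libraries, bars the mean and SD, and the dashed line marks the baseline. On this scale the double mutant and lin-65 lie at about the same height in each panel, and met-2 lies below them, from 1.05 for Y37E11AL.1 to 2.75 for mihp-1.

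Relative to the N2 baseline, the order of the strains was the same for all 4 genes, with the double mutant mean highest, lin-65 next and met-2 last. The step between the double mutant and lin-65 was 0.06 for Y37E11AL.1, 0.09 for sri-62, 0.17 for mihp-1 and 0.14 for pde-1. Except for mihp-1, libraries of the 2 strains overlapped. Over all 2949 genes the median of the same difference was 0.70, and 77.9% of the genes had every double mutant library above every lin-65 library. The choice of genes with high lin-65 values bears on this difference, so nothing is read from it and no test was made. The lin-65 mean exceeded the met-2 mean by 2.47 for Y37E11AL.1, 1.5 for sri-62, 0.56 for mihp-1 and 0.62 for pde-1, against a median of -0.42 over all genes. All 4 genes had the lin-65 libraries above the met-2 libraries, as had 5.8% of all genes, which the choice also favours. With library medians set to 0, the order of the 2 higher strains changed for all 4 genes. Every lin-65 library then lay above every double mutant library. The lin-65 and double mutant means were then 2.67 and 2.11 for sri-62, and 2.22 and 1.72 for pde-1.

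**Figure D2:**
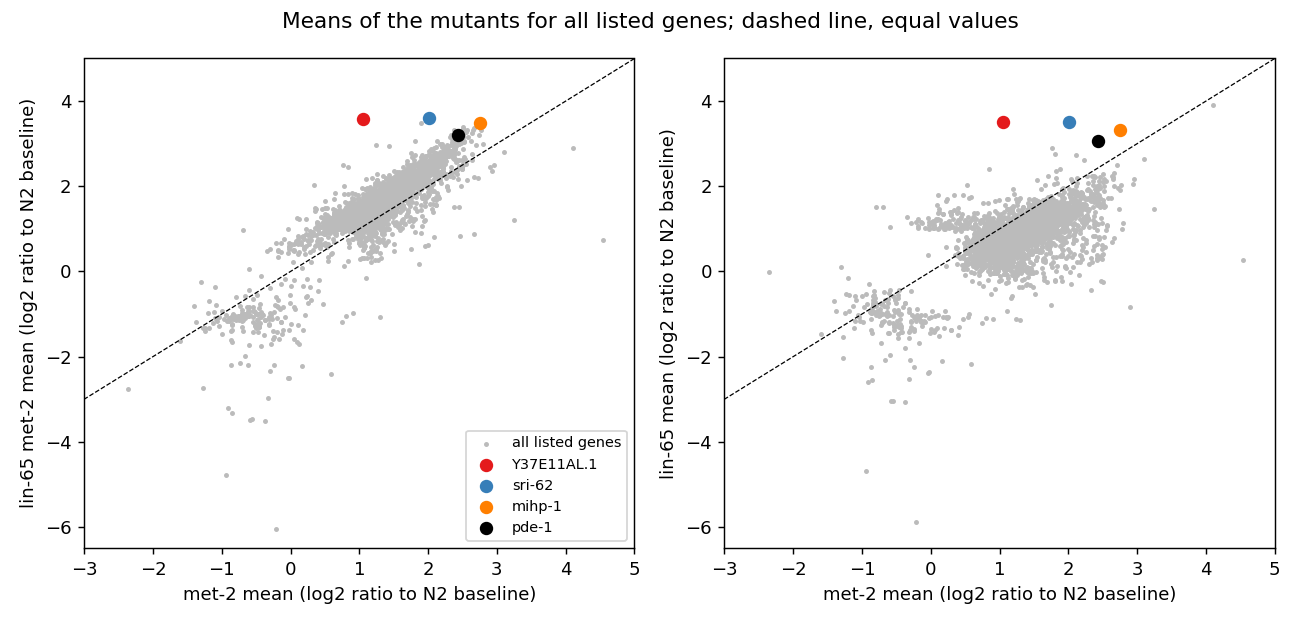
Mean log2 ratio to the N2 baseline of all 2949 genes (grey) in the double mutant (left, vertical axis) and in lin-65 (right, vertical axis) against met-2 (horizontal axes), with the 4 genes in colour and a dashed line of equal values. Y37E11AL.1, at 3.58 in the double mutant and 1.05 in met-2, and sri-62, at 3.60 and 2.01, stand off from the other genes, while mihp-1 and pde-1 lie at the upper right end of the cloud in the left panel and above it in the right panel.

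The double mutant and met-2 are separate strains that both carry the met-2 mutation, and only the first also carries the lin-65 deletion. No lin-65 single mutant library enters their difference of means, and the N2 baseline cancels. The lin-65 libraries enter only the estimate of the spread, and so the SE and p-values. All 4 transcripts were higher in the double mutant than in met-2. For Y37E11AL.1 the difference was 2.53 (SE 0.17, limma adjusted p = 1.11e-08), 5.78-fold and the highest of all 2949 genes. For sri-62 it was 1.59 (SE 0.18, limma adjusted p = 5.77e-06), 3.0-fold, which ranked 8. The differences of 0.77 for pde-1 (SE 0.17, limma adjusted p = 0.00793) and 0.74 for mihp-1 (SE 0.16, adjusted p = 0.00631) were 1.70-fold and 1.67-fold and ranked 96 and 120. Each gene had all 3 double mutant libraries above all 3 met-2 libraries.

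Of all 2949 genes, 348 passed as higher in the double mutant than in met-2, which is 11.8%, and 145 passed as lower, 4.92%. Complete separation with the double mutant above was seen for 27.7% of all genes. The median difference over all 2949 genes was 0.32, and all 4 genes exceeded it. These are the authors' selected genes, 2638 of them selected for the double mutant and 1941 for met-2. The median, the shares and the ranks can therefore carry that selection. Y37E11AL.1 was selected for lin-65 and for the double mutant but not for met-2, which may bear on its difference. With each library's median set to 0, an offset of 0.26 is removed, and the split became 143 higher and 272 lower. All 4 genes still passed as higher, at 2.27 for Y37E11AL.1, 1.33 for sri-62, 0.51 for pde-1 and 0.48 for mihp-1. Without replicate 3 of the double mutant, mihp-1 (0.69, limma adjusted p = 0.0537) and pde-1 (0.72, adjusted p = 0.0591) no longer passed. The number of higher genes was 1762 without met-2 replicate 1, 102 and 68 without met-2 replicates 2 and 3, and 93, 77 and 62 without double mutant replicates 1, 2 and 3. The number of lower genes was 93 and 91 without double mutant replicates 2 and 3.

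**Figure D3:**
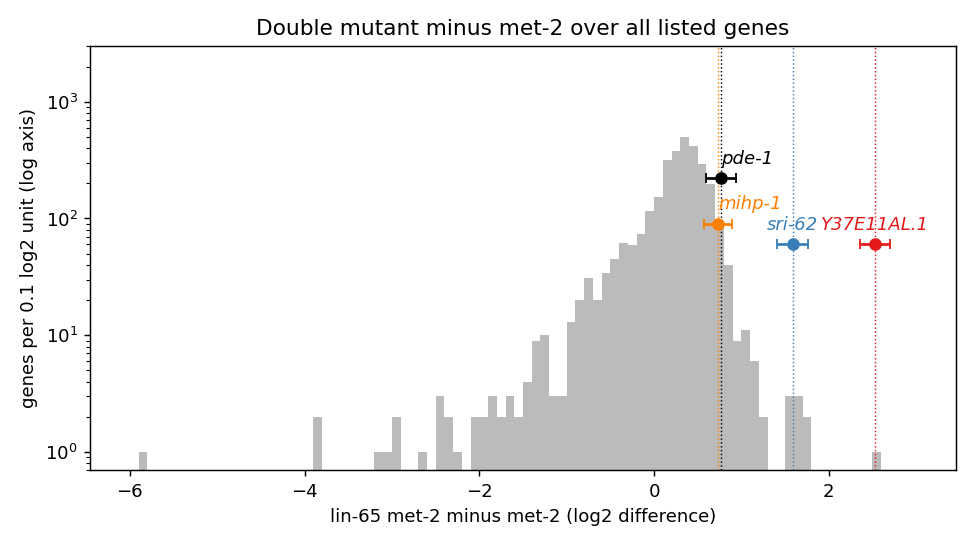
Number of genes (vertical log axis) by the log2 difference of the double mutant minus met-2 (horizontal axis, bins of 0.1), with the 4 genes as points with their limma SE, placed at arbitrary height. Y37E11AL.1 at 2.53 stands alone at the right end and sri-62 at 1.59 lies in a small group, whereas pde-1 at 0.77 and mihp-1 at 0.74 lie on the right shoulder of the distribution.

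How many oocyte markers passed in this comparison depended on the setting. Of 20 oocyte and eggshell genes 10 had values, among them the eggshell proteoglycan gene cpg-1 with a difference of 0.95. In the main fit 9 of the 10, with cpg-1, passed as higher in the double mutant (limma adjusted p under 0.05), beside 11.8% of all genes. This number was 1 with library medians set to 0, beside 143 of all 2949 genes. It was 4 of the 4 tested with only the genes of the double mutant table, beside 293 of 2638. Without met-2 replicate 3 or without any one double mutant library it was 2, beside 62 to 93 of all genes. In the remaining settings it was 8 to 10, beside 102 to 1992 of all genes. The median of the 10 genes in a library was 0.90 to 0.91 in the double mutant, 1.29 to 1.48 in lin-65 and 0.09 to 0.48 in met-2. Of 22 body wall muscle genes 15 had values and 0 passed with limma at an adjusted p under 0.05, while 7 had an unadjusted p under 0.05. The share of all genes under that unadjusted limit was not counted, so nothing is read from the 7. Without met-2 replicate 1, the library that stood apart, 13 of the 15 passed as higher, beside 1762 of all 2949 genes. The median of the 15 muscle genes in a library was 2.13 to 2.14 in the double mutant, 0.92 to 1.20 in lin-65 and 1.54 to 2.16 in met-2. The part of these cells or of embryo stage in the 4 genes' differences was not tested.

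Were the effects of the 2 mutations to add on the log2 scale, the double mutant would match the sum of the single mutants. The double mutant stood at 3.58 for Y37E11AL.1, against a sum of 4.57, and at 3.60 for sri-62, against 5.51. It stood at 3.48 for mihp-1, against 6.06, and at 3.20 for pde-1, against 5.50. The double mutant was thus below the sum for all 4 genes, with gaps of -0.99 to -2.57 log2 units, and it was below the sum for 85.2% of all genes, with a median gap of -0.54. High lin-65 values raise the sum, and all 3 means share the N2 baseline, so the gaps are a description without a test.

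Among all genes ranked by their lin-65 mean, the 4 held ranks 2 to 5. The rank above them belonged to C55C3.3, with means of 2.89 ± 0.19 in double mutant embryos, 3.91 ± 0.04 in lin-65 embryos and 4.11 ± 0.13 in met-2 embryos. For C55C3.3 the order of the strains was turned round, and it passed as lower in the double mutant than in met-2 (-1.21, SE 0.17, limma adjusted p = 9.31e-05). Just below pde-1 at 3.06 came ncs-6, of the neuronal calcium sensor family, at 2.89 in lin-65, the serotonin receptor gene ser-4 at 2.77 and the sequence-named Y55F3AM.11 at 2.74. These 3 genes also passed as higher in the double mutant than in met-2, by 1.03 for ncs-6, 1.25 for ser-4 and 0.82 for Y55F3AM.11 (limma adjusted p = 6.52e-04, 7.79e-05 and 0.00489).

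Likeness of pattern was measured as the Euclidean distance between genes over the 9 libraries, in log2 units. pde-1 and mihp-1 were each other's nearest genes, at a distance of 0.89. For sri-62 the nearest were pde-1 at 1.28, mihp-1 at 1.38 and ser-4 at 1.69. Y37E11AL.1 had the least company: sri-62 was nearest at 1.74, followed by ser-4 at 2.13 and ncs-6 at 2.18. Seen from pde-1, the next genes were Y55F3AM.11 at 1.02 and acd-2, of the acid-sensitive degenerin channels, at 1.25. For mihp-1 they were sri-62 at 1.38 and acd-2 at 1.74. The means of acd-2 were 2.97 (double mutant), 2.50 (lin-65) and 2.70 (met-2), so that met-2 exceeded lin-65 there. Few genes reach such heights, which by itself leaves few genes close by.

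The 4 genes lie toward the ends of their chromosomes. By the order of protein-coding genes in WBcel235, Y37E11AL.1 stood at 17.3% of chromosome IV, sri-62 at 18.5% of chromosome II, pde-1 at 90.5% and mihp-1 at 91.0% of chromosome I. All 4 were in the first or last 20% of the order, as were 37.9% of the listed protein-coding genes. These outer zones were chosen after the places were seen. pde-1 and mihp-1 are separated by 15 protein-coding genes, of which C01A2.2 alone had values, with means of 1.87 in double mutant embryos, 1.54 in lin-65 embryos and 1.42 in met-2 embryos. The deleted gene lin-65 is on chromosome I too, with 2385 protein-coding genes between it and pde-1. A variant linked to the deletion cannot be told apart from the deletion itself in 1 strain.

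Most direct neighbours had no values. Of the 5 protein-coding genes on each side of the 4 genes, 7 of 40 were listed, which is 17.5%, against 14.2% of all protein-coding genes. The surroundings of sri-62 were the exception, with both adjacent genes listed. On one side set-11, which encodes a SET-domain protein, had means of 2.45 ± 0.19 in double mutant embryos, 1.62 ± 0.38 in lin-65 embryos and 0.83 ± 0.42 in met-2 embryos. On the other side sri-61, of the same receptor class, had 1.66 ± 0.08, 1.05 ± 0.13 and 0.50 ± 0.50 in the same strains. Both passed as higher in the double mutant than in met-2, set-11 by 1.62 (SE 0.23, limma adjusted p = 9.31e-05) and sri-61 by 1.16 (SE 0.21, limma adjusted p = 0.00158). The potassium channel gene sup-9, 5 places away, had 0.96 in double mutant embryos, 1.12 in lin-65 embryos and 0.49 in met-2 embryos. It did not pass (limma adjusted p = 0.0733). Without met-2 replicate 1 it passed as higher at 0.61, as did 1762 of all 2949 genes.

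The other listed neighbours were few. T04D3.8, next to pde-1, had means of 1.62 in double mutant embryos, 1.81 in lin-65 embryos and 1.20 in met-2 embryos. On its other side lies gcy-35, a soluble guanylate cyclase gene that makes cGMP, for which no value was at hand. Next to mihp-1, C01A2.2 has been given above. W05H12.1, 3 places from mihp-1, had 1.27 in double mutant embryos, 0.18 in lin-65 embryos and 0.93 in met-2 embryos. Near Y37E11AL.1, Y37E11AL.2 had 1.43, 1.54 and 1.43 in the same strains and a double mutant minus met-2 difference of 0.01 (limma adjusted p = 0.981). T04D3.8, C01A2.2 and W05H12.1 did not pass in that comparison either, with differences of 0.42, 0.45 and 0.34. Without met-2 replicate 1 they passed as higher, at 0.41, 0.63 and 0.58, as did 1762 of all 2949 genes. The difference of Y37E11AL.2 was -0.25 with library medians set to 0 and changed sign as well when some single libraries were left out. A noncoding RNA gene overlaps Y37E11AL.1 on its own strand and another overlaps sri-62 on the opposite strand. Neither had a value here, and since the counting is not given in the sources used here, reads of these pairs may not have been separated.

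**Figure D4:**
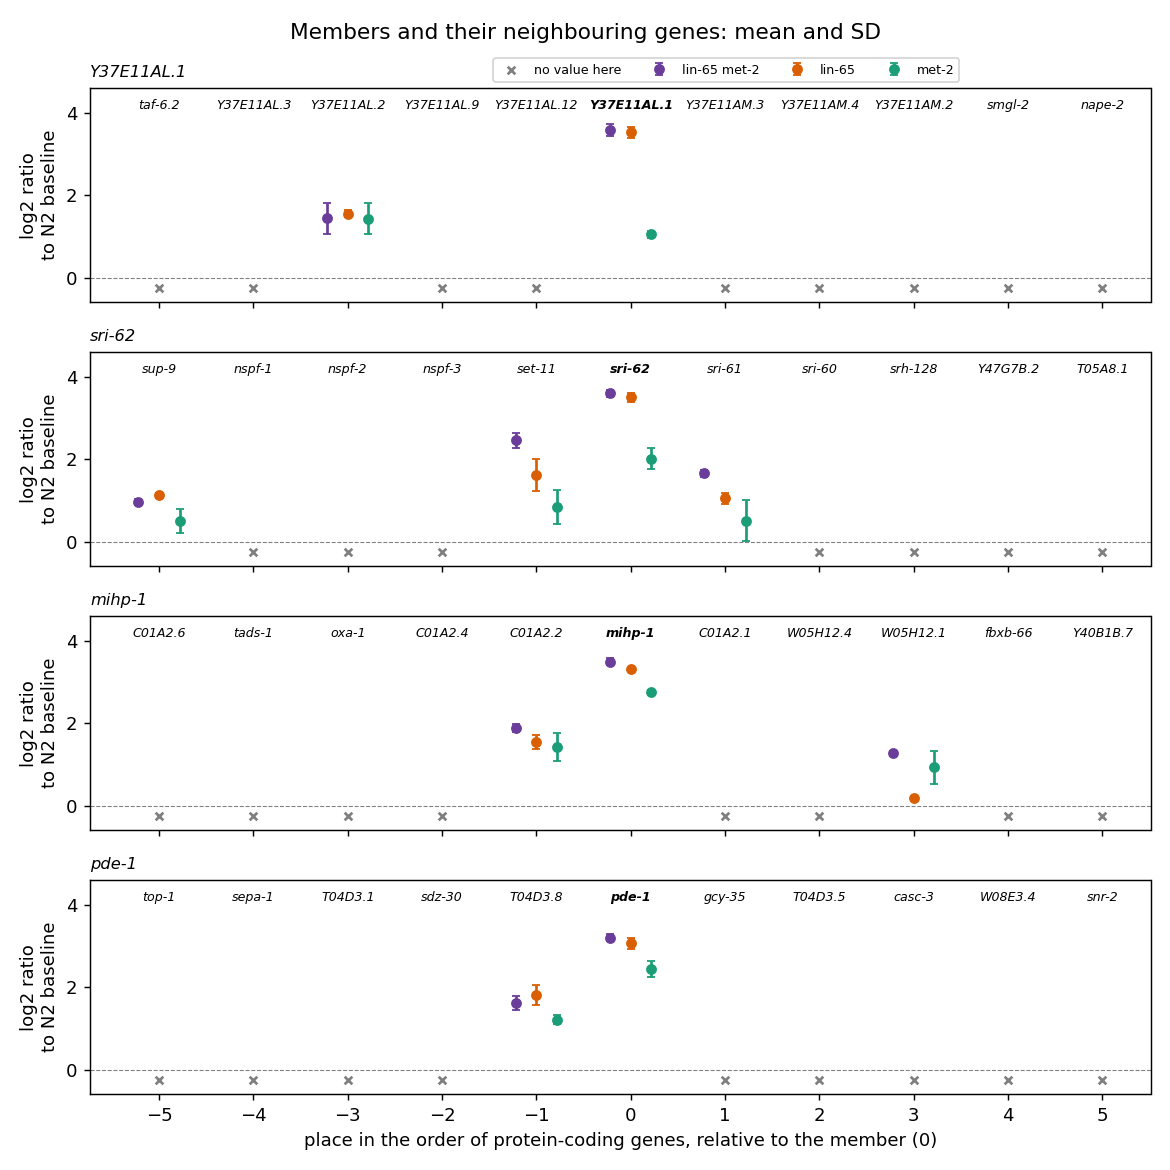
Mean log2 ratio to the N2 baseline with SD (vertical axis) of each gene and of the 5 protein-coding genes on each side of it (horizontal axis, place in gene order) in the double mutant, lin-65 and met-2; crosses mark genes without a value here. set-11 and sri-61 next to sri-62, at 2.45 and 1.66 in the double mutant, and C01A2.2 next to mihp-1, at 1.87, show the same order of strain means as the 4 genes. For C01A2.2 the lin-65 and met-2 libraries overlap. The means of sup-9, T04D3.8, Y37E11AL.2 and W05H12.1 stand in other orders.

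The relatives of pde-1 and sri-62 were described from lists of the same families and pathways. Of the 6 phosphodiesterase genes pde-1 to pde-6, 4 were listed, and 1 of these, pde-1, passed as higher in the double mutant than in met-2, where 11.8% of all genes passed. pde-6 had means of 2.11 ± 0.06 in double mutant embryos, 0.93 ± 0.10 in lin-65 embryos and 1.71 ± 0.30 in met-2 embryos. pde-4 had 1.66 ± 0.25, 0.69 ± 0.02 and 1.20 ± 0.31 in these strains, and pde-5 had 1.06 ± 0.19, 0.57 ± 0.07 and 1.19 ± 0.09. In all 3 of them the met-2 mean lay above the lin-65 mean, as in most listed genes, whose median lin-65 minus met-2 difference was -0.42. Their double mutant minus met-2 differences of 0.40, 0.46 and -0.13 did not pass (limma adjusted p = 0.113, 0.0931 and 0.532). Of the 4 listed genes, 3 had an unadjusted p under 0.05. The share of all genes under that unadjusted limit was not counted, so nothing is read from this. Without met-2 replicate 1, pde-6 at 0.56 and pde-4 at 0.63 passed as higher too, beside 1762 of all 2949 genes. Without double mutant replicate 3 none of the 4 passed, and 62 of all 2949 genes passed as higher.

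Of 32 genes chosen as cGMP and cAMP signalling partners, a choice that includes the calmodulin-dependent kinase unc-43, 14 were listed. In the double mutant against met-2, 1 of the 14 passed as higher, 1 as lower and 12 did not pass. This is near the 11.8% and 4.92% of all genes. Their medians were 1.49 in double mutant embryos, 0.74 in lin-65 embryos and 1.32 in met-2 embryos, beside 1.47, 0.83 and 1.20 over all genes. The gene that passed as higher was the guanylate cyclase gcy-33, by 0.74 (SE 0.18, limma adjusted p = 0.0109). Another guanylate cyclase, gcy-34, passed as lower, by -0.74 (SE 0.21, limma adjusted p = 0.0288). gcy-33 did not pass without met-2 replicate 3 (0.62) or double mutant replicate 2 (0.66), and gcy-34 did not pass without any one double mutant library (-0.68 to -0.81). Without met-2 replicate 1 the counts were 8 higher and 2 lower, beside 1762 higher and 198 lower of all 2949 genes. The highest lin-65 means were 1.07 for the adenylyl cyclase acy-1, 1.05 for the calmodulin-dependent kinase unc-43 and 0.96 for gcy-18, and gcy-34 was lowest at 0.09.

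Among 61 genes of the sri class 3 were listed. sri-62 and sri-61 passed as higher in the double mutant than in met-2, and sri-47 did not pass, with means of -1.29 ± 0.47 in double mutant embryos, -1.16 ± 0.20 in lin-65 embryos and -1.04 ± 0.49 in met-2 embryos. Of 1316 genes with chemoreceptor-type names 31 were listed, 4 passed as higher and 7 as lower in the double mutant against met-2, beside 11.8% higher and 4.92% lower over all genes. Their median difference was -0.14, beside 0.32 over all genes, and 0.04 over the 21 of them in the double mutant table. These counts were 10 and 9 without met-2 replicate 1, beside 1762 and 198 of all 2949 genes. With library medians set to 0 they were 3 and 11, beside 143 and 272 of all 2949 genes. The lower count was 3 without double mutant replicate 1 or 2 and 4 without replicate 3. Over all 2949 genes it was 101, 93 and 91 without replicates 1, 2 and 3. The list was built from symbols and includes odr-3, a G protein subunit. After sri-62 the highest lin-65 means were 1.69 ± 0.52 for srx-12 and 1.54 ± 0.36 for sre-50, and the lowest was -1.44 ± 0.16 for str-204. The highest met-2 mean was that of srw-85, at 0.74 ± 0.45 in double mutant embryos, 0.27 ± 0.20 in lin-65 embryos and 4.54 ± 0.16 in met-2 embryos, a gene named after its values were seen.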

How the data were processed

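The authors deposited 3 tables of log2 values, 1 per mutant and each labelled up, with 9 mutant libraries over selected genes. Per the submitters' processing notes, edgeR and genome build ce10 were used. No aligner, counting method, library scaling or selection rule beyond the label up is given in the sources used here. The tables were joined into 2949 genes, with identical values wherever a gene recurred. Because log2 values allow no count model, the double mutant was compared with met-2 by limma 3.58.1 in R 4.3.3, in a single fit of the 9 libraries without covariates, with p-values adjusted by Benjamini-Hochberg over all genes at 0.05. The code was tested on simulated data. Names, gene order and codon numbers were looked up by identifier in Ensembl's WBcel235 annotation, which held 2869 of the genes. No coordinate was converted or printed.

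The 4 genes and all gene lists were chosen with earlier results of these data known. Named besides them were the 3 nearest genes by pattern, listed neighbours, genes of adjacent lin-65 rank, and every listed member of lists of up to 6 genes, otherwise the 3 highest and the lowest in lin-65. cpg-1, gcy-33, odr-3 and srw-85 were named after their values were seen. Alternatives were library centring, 2 strains only, 1 table only, a variance trend, array weights, a replicate block and leaving out each library.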

Additional observations from a re-analysis of the deposited data

How the results depend on the processing

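The double mutant minus met-2 difference kept its sign for all 4 genes in all 15 alternatives. Y37E11AL.1 ranged over 2.27 to 2.59 and sri-62 over 1.33 to 1.75, and both passed in all 15 (highest limma adjusted p = 1.41e-05 and 9.51e-05). mihp-1 and pde-1 each passed in 14 of 15, losing the call without double mutant replicate 3. With 1 library left out at a time they ranged over 0.69 to 0.78 and 0.70 to 0.87, with limma adjusted p up to 0.0537 and 0.0591; the cause was not tested beyond the smaller number of libraries.

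The counts of 348 higher and 145 lower genes moved more. Higher genes numbered 143 with library medians set to 0, 218 with only the 6 libraries compared and 1992 with array quality weights. Lower genes numbered 272 with library medians set to 0, 245 with array weights and 85 with only genes of the double mutant table, where fewer genes were tested. Leaving out 1 library gave 62 to 1762 higher and 91 to 198 lower genes. The labels do not state whether replicate numbers pair the libraries. Same-numbered double mutant and met-2 libraries had deviations from their group means with a Pearson correlation across genes of only 0.016 to 0.034. Each of the 3 double mutant libraries nevertheless correlated best with its own number, a hint from the data and not the design. A replicate block gave 248 higher and 134 lower genes and changed no call of the 4 genes.

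Besides the genes given with such values above, acd-2 (0.39), acy-1 (0.50) and unc-43 (0.72) passed as higher without met-2 replicate 1. In that setting 1762 of all 2949 genes passed as higher. Centring changes the meaning of 0, which is then the median listed gene and not N2. On that scale the met-2 mean of Y37E11AL.1 was -0.17 in place of 1.05. The other 11 strain means of the 4 genes kept their sign but were all lower. The order of the 2 higher strains changed for all 4 genes, with every lin-65 library above every double mutant library. Without counts the depth is unknown and no interval from counting can be given.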
